A study of Homo sapiens with 5 samples.

Results

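Kallikrein genes on chromosome 19 encode secreted serine proteases, and the members described here are the group best known from the prostate: KLK15, KLK3, KLK2, the pseudogene KLKP1 and KLK4, in that order along the chromosome. They were found by symbol, by matching the RefSeq accessions of the expression table to gene names, and all 5 of 5 were in the table, among 22889 genes. They are represented by 11 of the 40253 accessions listed. The expression data were 2 libraries of LNCaP, an established human prostate cancer line that responds to androgen, transfected with a control siRNA or with an siRNA against LSD1. Binding was given as 3 peak lists from chromatin immunoprecipitation of untransfected cells, for LSD1 in both LNCaP and VCaP and for H3T6ph, phosphorylation of histone H3 on threonine 6, in LNCaP. VCaP is another androgen-responsive prostate cancer line. All cells had been starved of steroid in charcoal-stripped serum for 3 days, with a hormone stimulus afterwards that the labels leave unnamed. The stated aim of the series is the part LSD1 plays in androgen signalling. Each of the 5 groups held 1 sample, so no value below has a spread between replicates and no difference has a test.

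KLK3 encodes prostate-specific antigen, the protease that liquefies semen by cutting semenogelins and whose level in blood is the clinical marker of prostate disease. KLK2 encodes the closest paralog, a trypsin-like protease able to activate the KLK3 proenzyme, and KLK4 and KLK15 encode further prostate proteases. Transcription of KLK3 and KLK2 is induced by androgen, through a promoter element near each gene and, for KLK3, an enhancer a few kilobases upstream where LSD1 has been studied both as a coactivator and as a repressor. LSD1 is a lysine demethylase encoded by KDM1A, and phosphorylation of H3 at threonine 6 is known to hinder its removal of methyl groups from lysine 4.

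The promoters of KLK3 and KLK2 are shown first, because these paralogs were the most abundant members and were lower by a similar share after LSD1 siRNA. Each sequence covers 250 bases before the start of the gene and 50 from the start onward, read 5′ to 3′ on the strand of the gene, from RefSeq on GRCh38.p14. Capitals mark letters that match any of 4 motifs searched on both strands: AGAACA, the consensus half-site of androgen response elements; GNACA followed by any 4 bases and GTNC, a loose form of the full response element; TGTTTAC, a forkhead motif of the FOXA1 kind; and TATAAA. KLK15, the least abundant member, is added for contrast, from the more upstream of the starts listed for it. This start lies outside the KLK15 interval to which the expression values and peak distances below refer. That interval begins at the other listed start.
KLK3, chr19:50854665-50854964, plus strand: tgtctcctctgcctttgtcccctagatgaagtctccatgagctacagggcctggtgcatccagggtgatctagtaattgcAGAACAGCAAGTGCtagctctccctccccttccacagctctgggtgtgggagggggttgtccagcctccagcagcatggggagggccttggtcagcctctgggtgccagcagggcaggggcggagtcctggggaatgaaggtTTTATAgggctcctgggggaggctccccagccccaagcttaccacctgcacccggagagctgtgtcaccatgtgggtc
KLK2, chr19:50873189-50873488, plus strand: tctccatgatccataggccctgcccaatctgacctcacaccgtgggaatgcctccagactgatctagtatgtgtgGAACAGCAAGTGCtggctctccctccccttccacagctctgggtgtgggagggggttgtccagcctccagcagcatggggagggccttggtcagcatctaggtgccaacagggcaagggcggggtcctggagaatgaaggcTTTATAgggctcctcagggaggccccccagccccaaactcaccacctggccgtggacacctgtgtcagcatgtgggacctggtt
KLK15, chr19:50833525-50833824, minus strand: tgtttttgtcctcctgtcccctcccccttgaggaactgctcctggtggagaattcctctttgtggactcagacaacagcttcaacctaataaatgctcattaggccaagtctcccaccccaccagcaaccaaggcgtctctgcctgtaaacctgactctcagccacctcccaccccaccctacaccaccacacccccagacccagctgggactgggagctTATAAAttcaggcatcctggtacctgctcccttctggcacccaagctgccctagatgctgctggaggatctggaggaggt
In KLK3 the element begins at position -170, counted from the base before the start as -1, where AGAACA and the loose response element overlap. KLK2 matched the loose response element from position -175 and did not match AGAACA. Over the 15 bases of the element, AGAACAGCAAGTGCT in KLK3 and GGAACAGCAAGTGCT in KLK2, 14 are identical and the difference is A1G, with the KLK3 base first and positions counted from the 5′ end of the element. Both promoters also held TATAAA on the opposite strand, ending at position -23 in KLK3 and -29 in KLK2. Across the whole window the 2 promoters were 79.3% identical over 309 aligned columns. They shared an unbroken run of 80 bases that starts at position -154 in KLK3, just downstream of the element.

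At the printed start KLK15 had TATAAA at positions -30 to -25 and no match to the other 3 motifs. The other KLK15 start, where its measured interval begins, matched none of the 4 motifs. Both starts listed for KLK4 matched none either, and KLKP1 was not in the promoter table. Of 35116 promoters of this length, 14.8% held AGAACA, 2.19% held the loose response element, 3.42% held TGTTTAC and 11.5% held TATAAA. Promoter identity was at most 50.5% for every pair of these windows other than KLK3 with KLK2. A motif match is a description of letters and does not show binding.

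Expression was deposited as FPKM, fragments scaled by transcript length and library size, for each accession. The values were summed over the accessions of a gene, and differences are given as log2(FPKM + 1), LSD1 siRNA over control siRNA. The target itself, KDM1A, stood at 37.0 FPKM in the control library and at 6.87 FPKM after LSD1 siRNA, a log2 difference of -2.27. The luminal epithelial identity of the line was visible in both libraries: all 7 luminal markers were expressed, with KRT8 the highest at 929 FPKM in the control. Their sum was 2158 FPKM in the control and 1700 FPKM after LSD1 siRNA, 6 of the 7 had a lower value, and their median log2 difference was -0.37; the part this has in the kallikrein values was not tested. Basal, neuroendocrine and immune markers reached at most 1.07 FPKM in any gene of either library. The fibroblast and smooth muscle markers summed to 11.7 and 15.7 FPKM, with 2 of 5 listed at 0 in both, and the endothelial markers to 1.99 and 2.51 FPKM, with 1 of 3 listed at 0. In bulk RNA, fewer cells that express a gene and less RNA per cell cannot be told apart. Depth, estimated from low values of intronless olfactory receptor genes, came to 33.1 and 25.5 M fragments in the control and the LSD1 siRNA library.

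KLK3 was at 2474 FPKM with control siRNA and at 1941 FPKM with LSD1 siRNA. The LSD1 siRNA value was 78.5% of control, a log2 difference of -0.35. It was the 8th most abundant protein-coding gene of the control library and the 24th of the LSD1 siRNA library. KLK2 was at 339 FPKM in the control and 254 FPKM in the LSD1 siRNA library, which is 75.2% of control and a log2 difference of -0.41. Its rank among protein-coding genes was 181 and then 237. The level of KLK3 was thus 7.31 times that of KLK2 with control siRNA and 7.63 times with LSD1 siRNA. The 2 genes stayed in nearly the same proportion while both were lower. Because these paralogs are similar in sequence, reads may have been divided between them in ways the sources do not state.

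KLK4, which lies on the other strand, was at 217 FPKM in the control and 187 FPKM in the LSD1 siRNA library. This was 85.9% of control and a log2 difference of -0.22, the smallest of the members that were lower. KLKP1, a transcribed pseudogene between KLK2 and KLK4, was at 11.5 FPKM in the control and 7.83 FPKM in the LSD1 siRNA library. It had the lowest log2 difference of the 5, with -0.50, at 68.2% of control. KLK15 was at 2.26 FPKM in the control and 2.47 FPKM in the LSD1 siRNA library, a log2 difference of 0.09. For a transcript of 1000 bases these KLK15 levels would rest on about 59.5 and 50.1 fragments, so KLK15 is the least precisely measured member. The RefSeq table lists a noncoding RNA gene, LOC105372441, that overlaps KLK15, and the library kit does not mark strand.

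**Figure D1:**
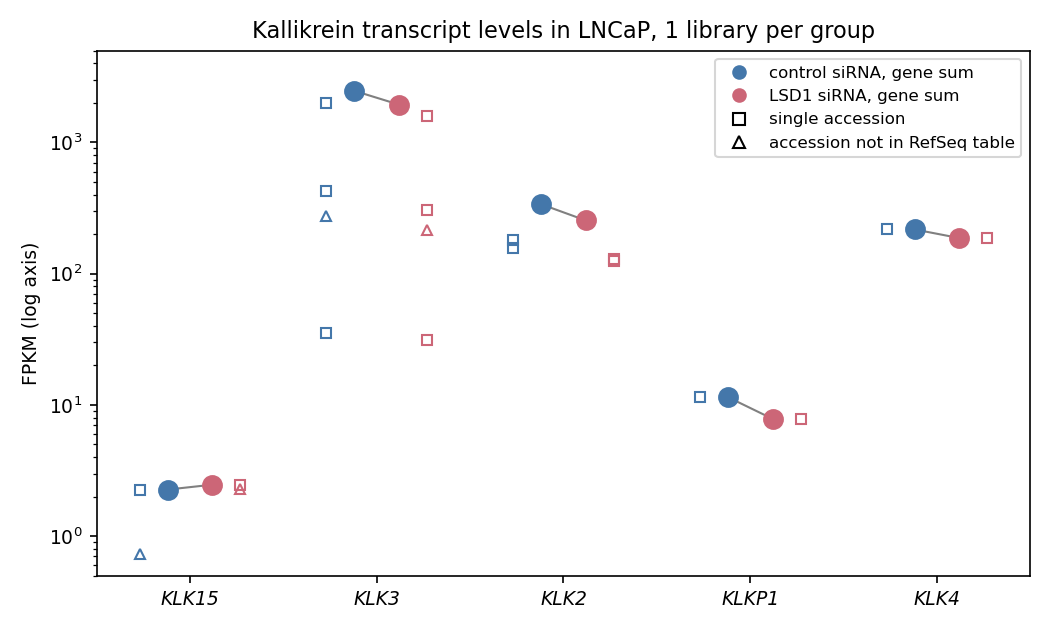
Transcript level in FPKM on a log axis for the 5 kallikrein members in order along the chromosome, 1 library per group. Filled circles are sums over the accessions of a gene, open symbols are single accessions at 0.1 FPKM or more; the 4 members from KLK3 to KLK4 have a lower LSD1 siRNA value and KLK15 a slightly higher one.

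The order of levels was KLK3, KLK2, KLK4, KLKP1 and KLK15 in both libraries. KLK2 and KLK4 were the closest neighbours in this order, with KLK2 at 1.56 times the level of KLK4 in the control and 1.36 times after LSD1 siRNA. KLK4 stood 18.9 and 23.9 times above KLKP1, and KLK3 stood 1092 and 787 times above KLK15. With 1 library per group, no spread exists against which neighbours in the order could be tested. In all, 4 of 5 members had a lower value after LSD1 siRNA, where 52.6% of the 12916 genes that reached 1 FPKM did, and the median log2 difference of the members was -0.35 against -0.01 over all those genes. The members are adjacent related genes, chosen with earlier results of these data known, so they are not 5 independent observations. On the log2(FPKM + 1) scale, none of the 5 passed a 2-fold difference, which 1.97% of all genes did in either direction, and none passed 1.5-fold, which 4.32% did.

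Placed among the 12916 genes, 3.21% had a log2 difference at or below that of KLKP1, 4.75% at or below that of KLK2, and 6.77% at or below that of KLK3. The share was 16.2% for KLK4 and 69.8% for KLK15. Among the 947 genes that reached 100 FPKM in either library, the median difference was -0.03, and 12.9, 14.99 and 21.2% lay at or below KLK2, KLK3 and KLK4. The 3 abundant kallikreins were therefore in the lower part of the range for abundant genes, and many such genes lay lower still.

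**Figure D2:**
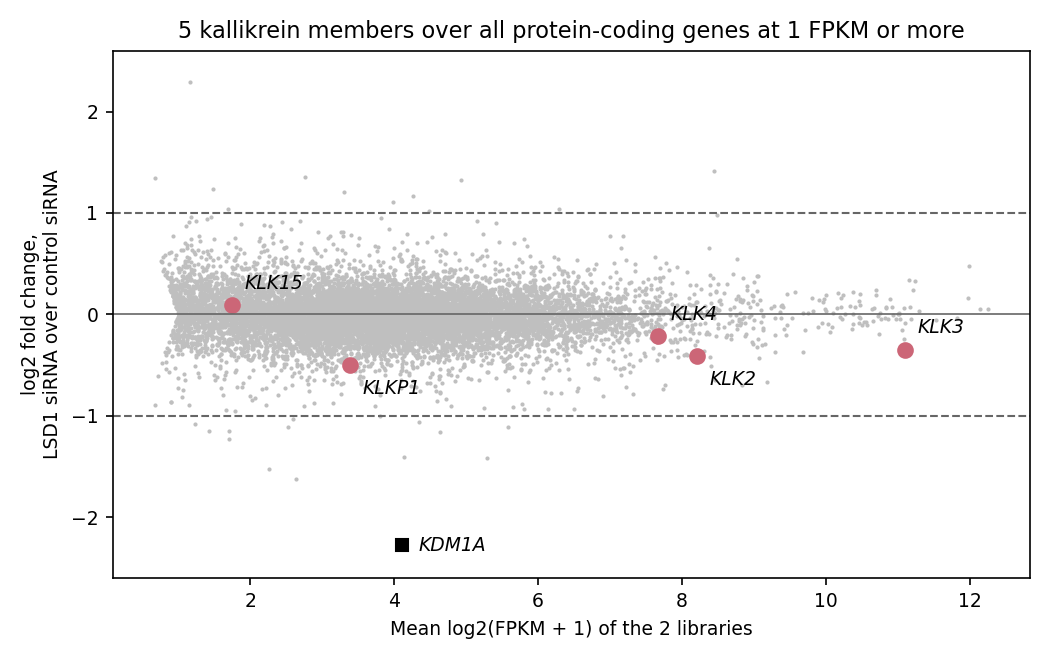
Log2 difference between LSD1 siRNA and control siRNA against mean log2(FPKM + 1) for protein-coding genes that reached 1 FPKM (grey), with the 5 kallikrein members in red and KDM1A as a black square. Dashed lines mark 2-fold; all 5 members lie between them, 4 below 0, while KDM1A is at -2.27.

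Single accessions followed the gene sums for the abundant members. NM_001648, the main KLK3 accession, was at 2011 and 1604 FPKM and made up 81.3% of the KLK3 sum in the control and 82.6% after LSD1 siRNA. NM_001030047 was at 427 and 306 FPKM, and NM_001030048 at 35.2 and 31.1 FPKM. The mix of KLK3 transcripts was therefore close to equal in the 2 libraries, with the second accession going from 17.3 to 15.8% of the sum. KLK2 was split almost evenly between NM_005551, at 182 and 129 FPKM, and NM_001002231, at 157 and 125 FPKM. The share of NM_005551 was 53.8% in the control and 50.8% after LSD1 siRNA, and the other 3 KLK2 accessions were listed at 0 in both libraries. The authors' deposited table called none of the 8 member accessions it tested, where it called 0.642% of all accessions it tested, and it lists the other 3 of the 11, all of KLK2, as not tested. Its lowest p-value for a member was 0.0557, for KLKP1, with a q of 0.824. For the tested accessions of KLK3, KLK2, KLK4 and KLK15 the authors' deposited table gives a q of 1.00.

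Another 3 accessions sit at exactly the interval of a member but were not in the RefSeq table used for names. At the KLK3 interval, NM_001030050 was at 277 and 215 FPKM, a log2 difference of -0.37, and adding it left the KLK3 difference at -0.35. With it the KLK3 sum was 2751 FPKM in the control and 2156 FPKM after LSD1 siRNA. The KLK3 levels, accession shares and ratios given above leave it out. At the KLK15 interval, NM_138564 was at 0.725 FPKM in the control and 2.28 FPKM after LSD1 siRNA, and NM_138563 was at or near 0. With both added, the KLK15 interval went from 2.99 to 4.75 FPKM, a log2 difference of 0.53 in place of 0.09, which is then larger in size than the -0.50 of KLKP1. Without the added 1, this sum was at 159% of control, past 1.5-fold. The authors' deposited table gives NM_138564 a p-value of 0.0383 and a q of 0.705, and did not call it. The size of the KLK15 difference thus depends on which of its accessions are counted. Its sign was the same in each case, but it could not be tested at these low levels with 1 library per group.

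The remaining 11 kallikrein genes of the cluster, KLK1 and KLK5 to KLK14, were all below 1 FPKM in both libraries. Their sum over all 11 was 1.37 FPKM in the control and 0.952 FPKM after LSD1 siRNA, and 4 of them were listed at 0 in both. KLK7, an epidermal protease gene, was the highest in the control library, at 0.635 and 0.319 FPKM in the 2 libraries, and KLK14 was at 0.521 and 0.337 FPKM. Expression in this cluster was thus confined, at the 1 FPKM level and in these 2 libraries, to the 5 adjacent members between KLK1 and KLK5. Of the 14 genes within 250 kb that are not kallikreins, 7 reached 1 FPKM, 4 with a lower and 3 with a higher value after LSD1 siRNA. Nearest on the KLK1 side was TMEM277P, at 1.41 and 0.803 FPKM, and nearest on the KLK14 side was CTU1, a tRNA thiolation enzyme gene, at 2.13 and 2.35 FPKM. Further out, C19orf81 was at 2.48 and 2.10 FPKM and the growth factor gene CLEC11A at 13.7 and 11.0 FPKM. The snoRNA genes SNORD88A, SNORD88B and SNORD88C share 1 table interval, and their values, between 141 and 703 FPKM, are unreliable at such short lengths. They are among the 7 counted above, SNORD88B with a lower value and SNORD88A and SNORD88C with higher ones. The split of the 7 by direction therefore rests partly on unreliable values.

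Genes for serine protease inhibitors and for kallikrein substrates and receptors were taken from lists. Of 10 inhibitor genes, 5 reached 1 FPKM, with 3 higher and 2 lower values, where 52.6% of all genes at that level were lower. Their median log2 difference was 0.23 against -0.01 over all those genes. SPINT2 and SPINT1, membrane Kunitz inhibitors of serine proteases, were at 263 and 322 FPKM and at 81.6 and 106 FPKM. SERPINA3, the antichymotrypsin that binds prostate-specific antigen in blood, was at 3.39 and 4.16 FPKM. SERPINB6, an intracellular serpin gene, was at 64.6 and 59.1 FPKM, and SPINK1, a trypsin inhibitor gene, at 1.02 and 0.331 FPKM. The inhibitor median is the value of SERPINA3, a gene at a low level, and its sign is opposite to that of the kallikrein median. With 5 genes that differ in direction, it does not show a shared direction of the inhibitors. None of the inhibitors passed 2-fold on the log2(FPKM + 1) scale. Without the added 1, SPINK1, at a very low level, was at 32.4% of control.

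Of 9 substrates and receptors, 4 reached 1 FPKM, with a median log2 difference of -0.13. FN1, which encodes fibronectin, was at 437 and 380 FPKM, and IGFBP3, a growth factor binding protein that prostate-specific antigen cuts, was at 50.2 and 56.5 FPKM. F2RL1, the protease-activated receptor that trypsin-like kallikreins can cleave, had the largest difference, at 23.1 and 14.3 FPKM with a log2 value of -0.66. Its relative F2R was at 10.8 and 10.3 FPKM. The semenogelin genes SEMG1 and SEMG2, the seminal substrates, were below 1 FPKM in both libraries.

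Other genes of prostate secretion and the luminal cell surface were lower too. Of 12 listed, 10 reached 1 FPKM and 10 of these 10 had a lower value, where 52.6% of all genes at that level did. Their median was -0.34, close to the -0.35 of the kallikreins, against -0.01 over all those genes. The list was chosen with earlier results of these data known. The transporter gene SLC45A3 was at 173 and 114 FPKM (log2 -0.60) and AZGP1, which encodes zinc-alpha-2-glycoprotein, at 36.1 and 24.9 FPKM (log2 -0.52). TRPM8, a cold-sensitive channel gene, was at -0.38, the protease gene TMPRSS2 at -0.36 and PMEPA1 at -0.32. MSMB, which encodes a major seminal protein, was at -0.25 and the metalloreductase gene STEAP2 at -0.24. ACP3, which encodes prostatic acid phosphatase, was at -0.09. FOLH1, which encodes prostate-specific membrane antigen, was at 284 and 283 FPKM, a log2 difference of only -0.005. None of the 10 passed 2-fold.

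Factors known to act at the KLK3 promoter or enhancer had a median of -0.12 over the 15 of 16 that reached 1 FPKM, 9 of them lower and 6 higher. Of all genes at that level, 52.6% had a lower value. The target KDM1A counts among the 9, and was the 1 factor past 2-fold. MED1, a Mediator subunit that binds nuclear receptors, was at 17.7 and 13.7 FPKM (log2 -0.35). FOXA1, a pioneer factor, was at 163 and 137 FPKM (log2 -0.25) and HOXB13 at 77.5 and 68.6 FPKM (log2 -0.17). GATA2 was at 69.5 and 70.3 FPKM and POU2F1 at 6.26 and 6.30 FPKM. The steroid receptor coactivator genes NCOA1 and NCOA2 were at -0.12 and -0.16 and NCOA3 at 0.17, and the acetyltransferase genes EP300 and CREBBP were at -0.03 and 0.19. The demethylase gene KDM4C was at 0.05, while the kinase gene PRKCB was below 1 FPKM. The part that the levels of these factors have in the kallikrein values was not tested.

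**Figure D3:**
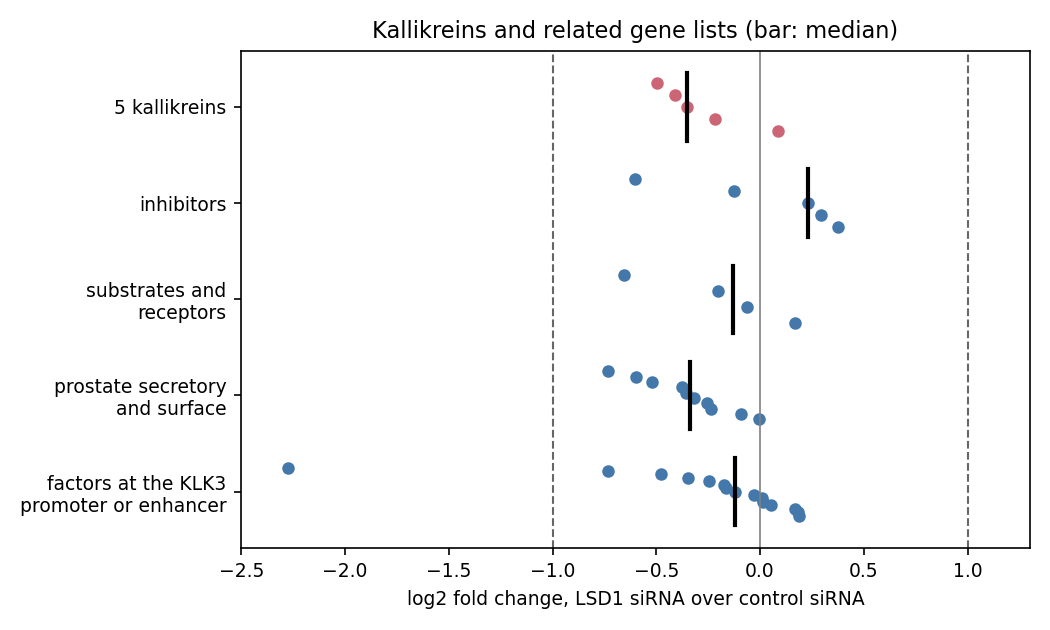
Log2 difference, LSD1 siRNA over control siRNA, of each gene at 1 FPKM or more in the 5 kallikreins (red) and in 4 related lists (blue), with medians as black bars and 2-fold as dashed lines. The kallikrein and prostate secretory medians lie at -0.35 and -0.34 and the inhibitor median at 0.23; KDM1A is the point at -2.27.

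The genes nearest to KLK3 by Euclidean distance over its 2 log2(FPKM + 1) values were ribosomal protein genes, a likeness that rests on level. RPS24 was nearest, at a distance of 0.08 and at 2350 and 1981 FPKM, and RPL26, RPS6 and RPL7A were among the next, at distances of 0.15 to 0.25. Their log2 differences, -0.25 for RPS24 and -0.16 to -0.04 for the other three, were all smaller in size than that of KLK3. Nearest to KLK2 were ADAMTS1, a secreted metalloprotease gene (distance 0.09, 320 and 259 FPKM), then ATP6V0E1, TMPRSS2, YWHAZ and CYB5A at distances of 0.11 to 0.18. With 2 libraries, such likeness compares only 2 numbers per gene.

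Peaks were then read across the members. The 5 gene intervals span 85.5 kb of chromosome 19 in hg19 coordinates, from 51328545 to 51413994, and with 20 kb on each side this region held 4 LSD1 peaks and 2 H3T6ph peaks of LNCaP and 1 LSD1 peak of VCaP. These were 4 of 278 chromosome 19 peaks in the LNCaP LSD1 list, 2 of 134 in the H3T6ph list and 1 of 537 in the VCaP LSD1 list. None of the 7 peaks overlapped the start of a member. Scores are the authors' own and are used only to place a peak within its list. The depth of the immunoprecipitated samples is unknown, since peak lists hold no read totals.

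The first site lay upstream of KLK3, where its enhancer is known to be, and was the 1 place in the region with peaks of all 3 lists. The LNCaP LSD1 peak was at chr19:51353751-51354592, with its centre 4 kb before the KLK3 start. The H3T6ph peak at chr19:51353697-51354477 shared 727 bases with it, and their centres were 84.5 bases apart. The VCaP LSD1 peak, at chr19:51353180-51355973, was 2794 bases wide, covered both of the others in full, and was centred 3.59 kb before the KLK3 start. The LNCaP LSD1 peak scored 58.5, at or above 29.5% of its list, whereas the H3T6ph peak scored 81.0 (78.4% of its list) and the VCaP LSD1 peak 81.6 (83.8% of its list). The peak at the KLK3 enhancer was thus the lowest-placed of the 4 LNCaP LSD1 peaks in the region.

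The second site lay upstream of KLK2 and was in the LNCaP LSD1 list alone. It was at chr19:51372494-51373518, centred 3.68 kb before the KLK2 start and 14.8 kb after the KLK3 start. Its score of 126 was the highest of the 4, at or above 94.5% of the list. Measured to the nearest start downstream, LNCaP LSD1 thus had a peak about as far before KLK2 as before KLK3. A peak centre within 5 kb before the start was found for 6.16% of 9721 protein-coding genes with this list, 1.60% with the H3T6ph list and 7.23% with the VCaP LSD1 list.

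The third site was inside the KLKP1 interval, where the LNCaP LSD1 peak at chr19:51392570-51393385 and the H3T6ph peak at chr19:51392591-51393531 shared 795 bases. It lay 8.75 kb past the end of KLK2 and 16.2 kb from KLK4. The LSD1 peak scored 118 (at or above 93.2% of its list) and the H3T6ph peak 107 (90.2% of its list). The fourth site, LNCaP LSD1 alone, was at chr19:51424643-51425902, centred 11.3 kb before the start of KLK4, with a score of 102 (87.4% of its list). It is the widest of the 4 LNCaP LSD1 peaks at 1260 bases, against a median of 730 bases for that list.

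**Figure D4:**
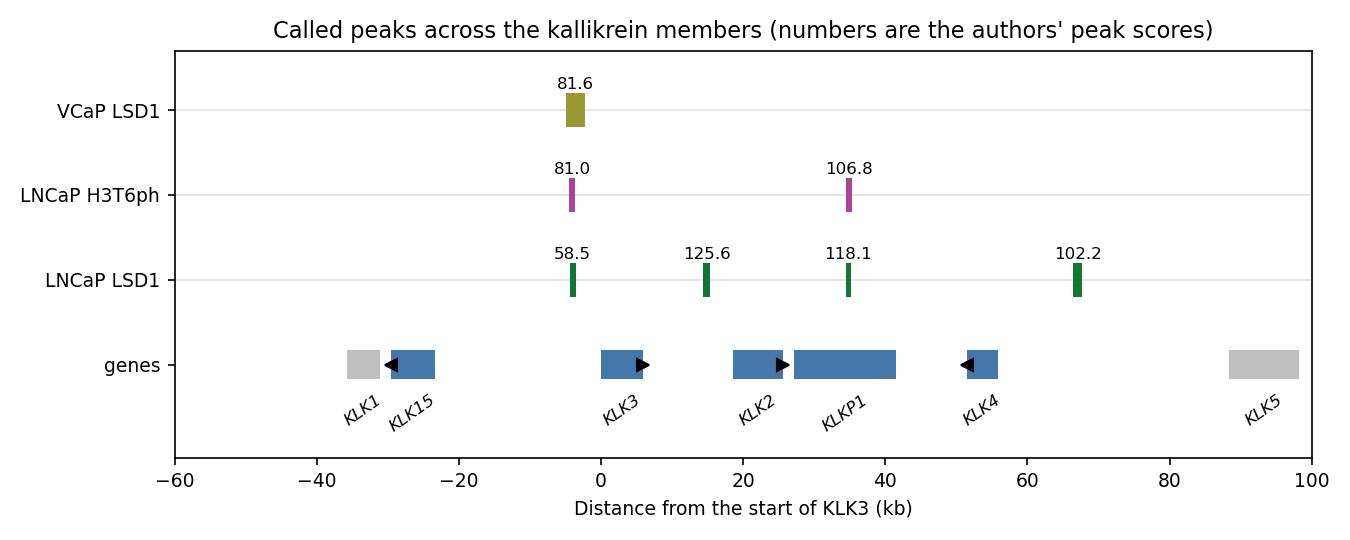
Peaks of the 3 lists by distance in kb from the start of KLK3, with gene intervals below (members in blue, other kallikreins in grey, arrowheads at the end toward which a gene is transcribed where the strand is known) and the authors' scores above each peak. All 3 lists meet near -4 kb, LNCaP LSD1 and H3T6ph meet again inside KLKP1, and the other LNCaP LSD1 peaks stand alone.

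Of the 4 LNCaP LSD1 peaks, 2 overlapped an H3T6ph peak, where 5.81% of the whole LNCaP LSD1 list did, 1 overlapped VCaP LSD1, where 10.4% did, and that same 1 overlapped both other lists, where 2.90% did. Of the 2 H3T6ph peaks, 2 overlapped LNCaP LSD1, against 15.2% of the whole H3T6ph list, and 1 overlapped VCaP LSD1, against 25.9%. These are counts of very few peaks in a region that was chosen by its genes. No VCaP LSD1 peak was called at the other 3 LNCaP LSD1 sites, and a site below the calling threshold may still be bound.

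Counted by gene, all 5 members had a LNCaP LSD1 peak within 20 kb of their interval, as 41.2% of genes at 1 FPKM or more did, and all 5 had an H3T6ph peak, as 17.8% did. A VCaP LSD1 peak lay within 20 kb of KLK15 and KLK3 only, against 41.2% of genes. It missed KLK2 by under 1 kb, at a gap of 20.7 kb. KLK15 and KLK3 were thus the members near peaks of all 3 lists, which 7.26% of genes were. KLK15 was near the KLK3 enhancer site at a gap of 18.97 kb and near no other LNCaP LSD1 peak. The other 4 members each had 2 LNCaP LSD1 peaks within 20 kb, where 13.8% of genes had at least 2. Neighbouring members count the same peaks, so these 5 are not independent.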

How the data were processed

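Samples were grouped by their titles, with 1 sample in each of 5 groups, and members and gene lists were chosen with earlier results of these data known. Per the submitters' processing notes, Bowtie2 2.0.0, TopHat2 2.0.4, MACS2 and Cuffdiff 2.0.1 were used with hg19; the control track, annotation version and library scaling are not stated in these sources. The authors deposited FPKM for each RefSeq accession in 2 RNA libraries, with their p-value and q-value per accession. The deposited peak lists carry 1 score for each peak, of unstated scale. RNA libraries came from the TruSeq kit v2, which does not mark strand, per the labels' protocols.

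Of 40253 accessions 96.7% matched a symbol in the RefSeq table of GRCh38.p14, used for names and neighbours; FPKM was summed per gene, and 42 genes with a failed accession were left out. Genes reaching 1 FPKM in a library were compared with a pseudocount of 1, and a 2-fold difference was the size called, since 1 library per group allows no test. Named genes were the 5 members, KDM1A, list genes at 1 FPKM or more, the 5 genes nearest to KLK3 and to KLK2, and neighbours within 250 kb; some genes that this rule takes in are not reported here. Fragment totals were estimated as the depth and length correction (206 and 204 bases off) at which all of 37 low olfactory receptor values in each library were whole within 0.05. Peaks overlapped with at least 1 shared base. Alternatives were another pseudocount, scaling, filter, fold, accession choice, distance, flank, overlap and score limit. Calculations used Python 3.11.15 with pandas 2.3.3 and Biopython 1.88. Only the fold call, the peak overlap and the count of nearby peaks were checked on simulated data. The fold call was checked with large changes in well expressed genes, so low levels such as that of KLK15 were not covered.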

Additional observations from a re-analysis of the deposited data

How the results depend on the processing

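Of 68 recalculations, 61 kept the direction and size class of the value, or a count within 1.5 times. Some of these could not have differed, so the 61 is not a measure of robustness. The median was the KLK3 value in every setting, and accession choice could not move KLKP1 or KLK4, with 1 accession each. Size class meant only whether 2-fold was passed, so KLK15 at 0.09 and at 0.53 counted as kept. The median log2 difference of the 5 kallikreins ran from -0.35 to -0.32 over all settings. KLK3 ran from -0.35 to -0.32, KLK2 from -0.49 to -0.38, KLK4 from -0.22 to -0.19, KLKP1 from -0.55 to -0.47 and KLK15 from 0.09 to 0.53, the last with every accession at its interval summed. That sum, and scaling to the total of protein-coding genes, were chosen after seeing the data. No scaling moved the median of protein-coding genes by more than 0.03. The count of members past the fold limit was 0 under each of its 4 alternatives, none of which changed the accessions summed. Within 10 kb in place of 20 kb, members with a peak nearby were 3 for LNCaP LSD1, 3 for H3T6ph and 1 for VCaP LSD1, and within 50 kb they were 4 for VCaP LSD1. With the higher-scoring part of each list (scores at or above its median) the shared LNCaP LSD1 and H3T6ph sites went from 2 to 1 and the site of all 3 lists from 1 to 0, because the LSD1 peak near KLK3 scored below the median. With at least 50% of each peak shared the site of all 3 lists was also 0, because the VCaP LSD1 peak is much wider. No paired analysis was possible because each group held 1 sample.

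With 1 sample per group, nothing separates the siRNA from other differences between the 2 libraries. FPKM of the paralogs depends on how shared reads were divided. A peak list leaves out sites under its threshold.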

Other observations

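Outside the 5 members, the cluster from KLK1 to KLK14 held 1 further peak of any list, an H3T6ph peak at chr19:51574260-51574792 between KLK13 and KLK14, with a score of 58.7 at or above 44.3% of its list. Both flanking genes were under 1 FPKM in the 2 libraries. Outside the kallikrein sites, the next LSD1 peak of LNCaP was at chr19:51014026-51014908, 314 kb before the KLK15 end of the span. On the other side it was at chr19:51925108-51925711, 511 kb past the KLK4 end. For VCaP LSD1 the next peaks were at distances of 166 and 431 kb. None of these 4 flanking LSD1 peaks overlapped a peak of another list.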
